A study of Mus musculus with 17 samples.

Results

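The transcripts of 9 transcription factors and cofactors of blood stem cells were followed through an inflammatory challenge in mouse bone marrow: Mecom, Hlf, Meis1, Gata2, Runx1, Erg, Fli1, Tal1 and Lmo2. They were taken by gene symbol from a table of 35321 symbols measured in 17 libraries of polyadenylated RNA, and all 9 were among the 14920 genes that passed the filter on low counts. The cells, immature marrow cells from which blood is formed (hematopoietic stem and progenitor cells, HSPC), were sorted by flow cytometry from wild-type C57BL/6J mice injected intraperitoneally. The PBS group (5 libraries, titled day 0) received phosphate-buffered saline. The LPS groups received lipopolysaccharide, an inflammatory molecule of the bacterial outer membrane, 24 h or 72 h before harvest (3 libraries each). The antibody groups received LPS and a blocking antibody against the receptor of interleukin-10 (IL-10R), a cytokine that restrains inflammation, also 24 h or 72 h before harvest (3 libraries each). The series text gives 5 µg of LPS and 100 µg of antibody, and the sample protocol gives the same figures in milligrams. No group analysed here received the antibody without LPS, so the antibody was compared only on top of LPS. Age, sex and sort gates are not given in the sources used here, and nothing states that libraries came from separate mice, so the p-values measure only the spread between these samples, which may be technical.

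Blood stem cells are kept in their immature state by a circle of regulators that bind one another's genes and many enhancers together. Gata2, a zinc-finger factor, Tal1, a basic helix-loop-helix factor, Runx1, a Runt-domain factor, and the ETS-family factors Erg and Fli1 bind DNA directly, whereas Lmo2 bridges Tal1 and GATA factors in a shared complex without touching DNA itself. Mecom, which encodes the zinc-finger protein EVI1, Hlf, a PAR-type leucine-zipper factor linked to quiescence, and Meis1, a homeobox factor that works with Hox proteins, are typical of the most immature cells.

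Mecom spans chr3:29951296-30548008 of the GRCm38 build on the minus strand with 24 merged exons, and Meis1 spans chr11:18879817-19018985 on the minus strand with 11 (GENCODE M21 annotation). Hlf lies at chr11:90336536-90390895, Runx1 at chr16:92601466-92826149, Erg at chr16:95359169-95586593 and Fli1 at chr9:32422204-32542861, all on the minus strand. Gata2 lies at chr6:88193891-88207032, Tal1 at chr4:115056426-115071755 and Lmo2 at chr2:103957986-103981878, all on the plus strand. Whether counting used strand is not given in the sources used here, so reads in exons shared with another annotated gene are uncertain. Such overlaps covered 9.77% of the Meis1 exon length on the same strand (Gm37818) and 8.51% on the other strand (Gm16140), 0.881% for Runx1 (Gm26626) and 0.652% for Mecom (Mecomos).

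Promoter sequence is shown for Mecom and Meis1, the members called in the most comparisons (4 each), as bases just before an annotated transcription start (RefSeq, GRCm38.p6, minus strand, written 5′ to 3′). The Mecom stretch is chr3:30509823-30510009, without the bases annotated as untranslated exon, and the Meis1 stretch is chr11:19018970-19019219, whose last 16 bases lie in an exon annotated as untranslated. In Meis1 the capitals mark matches, on either strand, to TGTGGT (Runx type), TTACNNAA (PAR leucine-zipper type) and CCGGAA (long ETS type). The Mecom stretch holds none of these, nor the motif of GATA factors, AGATAA, the E-box CAGCTG or the Meis-type TGACAG. Another annotated Mecom start has the window chr3:30013205-30013454, which is not shown because all 250 bases are annotated as untranslated. That window holds 1 match to TGACAG and 1 to TTACNNAA.
Mecom: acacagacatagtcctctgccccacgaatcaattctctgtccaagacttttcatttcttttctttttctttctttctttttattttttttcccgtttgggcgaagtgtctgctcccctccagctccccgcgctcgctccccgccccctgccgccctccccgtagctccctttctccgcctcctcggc
Meis1: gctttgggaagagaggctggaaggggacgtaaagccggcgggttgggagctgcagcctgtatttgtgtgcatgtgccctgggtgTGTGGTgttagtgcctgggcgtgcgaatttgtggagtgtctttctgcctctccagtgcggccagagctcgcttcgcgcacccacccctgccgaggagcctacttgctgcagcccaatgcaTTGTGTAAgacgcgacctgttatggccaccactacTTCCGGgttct
RefSeq entries were found for 7 of the 9 genes, with 13 starts in all, and the 250 bases before each start were searched on both strands. Of the 13, and beside the share of 32817 mouse promoters of that length, TGTGGT was found before 1 (14.04%), CCGGAA before 3 (12.02%), TTACNNAA before 2 (8.08%) and TGACAG before 2 (15.86%). AGATAA was found before 2 (9.99%), CAGCTG before 0 (13.01%) and GGAA, the short ETS core that lies within CCGGAA and was not marked, before 12 (93.44%). These are matches of letters and no measure of binding.

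Library totals ranged from 10516722 to 16006001 counts. The names of all PBS libraries and of both 24 h libraries numbered 1 are written without brackets, and all other names with them. Whether this marks a batch is not stated. In comparisons of 72 h with PBS this difference in naming cannot be told apart from the treatment. At 24 h only the libraries numbered 1 share the naming of PBS. Some counts below are also given without both of these libraries, a fit in which the limit holds at 24 h too. LPS 24 h library 1 stood apart, with 16431 genes detected and a scaling factor of 0.799, against 0.947 to 1.12 in the other libraries, and calls of the 9 genes that were lost without it are named as such. Levels are given as CPM, the count of a gene relative to the total of its library, which edgeR scaled with the trimmed mean of M-values (TMM). All 12 listed HSPC markers passed the filter, among them Kit, the stem cell factor receptor (228 to 589 CPM over all libraries), Cd34 (234 to 848 CPM) and Ptprc, the common leukocyte antigen (165 to 385 CPM). A gene was called when its p-value from edgeR's quasi-likelihood test, adjusted over all 14920 genes of a comparison, was below 0.05. With upper-quartile factors the all-gene median log2 change went from -0.03 to -0.16 for LPS 24 h against PBS, from -0.00 to -0.11 for the antibody group at 24 h and from 0.02 to 0.13 for LPS 72 h against 24 h. The share of called genes that were higher then moved from 50.7% to 36.8%, from 48.3% to 32.5% and from 47.2% to 59.2%. It moved from 51.4% to 32.8% for the antibody group at 72 h against PBS, from 57.1% to 42.4% for the antibody effect at 72 h and from 63.5% to 49.7% for the difference of the antibody effects.

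In PBS libraries the 9 transcripts differed widely in abundance. Divided by merged exon length, Lmo2 was highest at 181 ± 22.9 CPM per kb (SD, n = 5), followed by Erg at 36.4 ± 7.85, Fli1 at 24.5 ± 1.80, Hlf at 20.3 ± 6.14 and Tal1 at 17.6 ± 1.80 CPM per kb. Gata2 (12.5 ± 2.67), Meis1 (9.58 ± 2.35) and Runx1 (9.52 ± 0.670) were lower, and Mecom was lowest at 2.18 ± 0.768 CPM per kb. Lmo2 was the highest and Mecom the lowest of the 9 in each of the 5 groups. Meis1 and Runx1, neighbours in that order, differed by less than their spread.

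**Figure D1:**
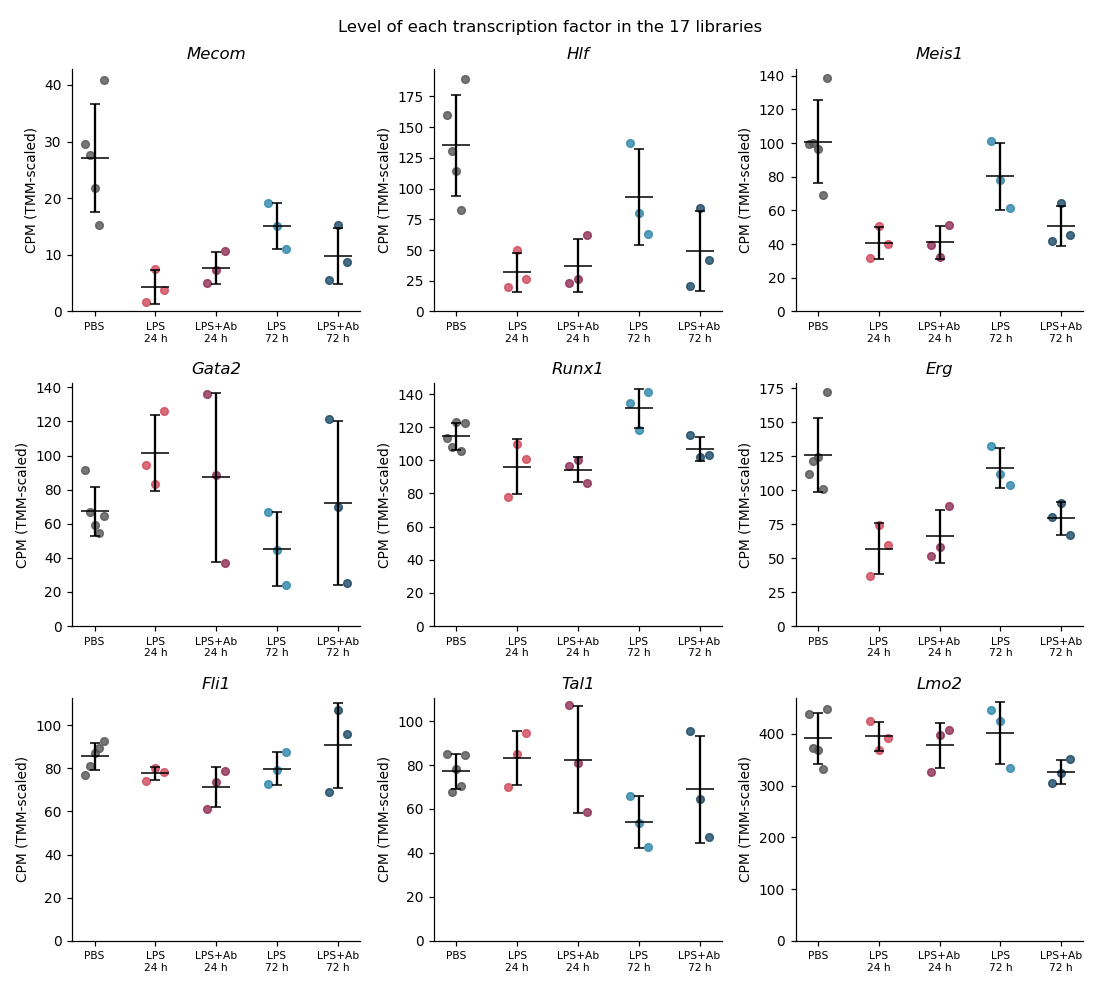
Each panel shows 1 gene, with TMM-scaled CPM on a linear axis from 0 and the 5 groups along the x axis; points are libraries and bars are the group mean ± SD (n = 5 for PBS, 3 for each other group). Mecom, Hlf, Meis1 and Erg lie below every PBS library in all 6 libraries taken at 24 h, whereas Fli1 and Lmo2 overlap PBS in all 4 treated groups.

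The comparison of LPS at 24 h with PBS asked where the stem cell factors stood early in the response. Mecom, Hlf, Meis1 and Erg fell, by 6.17-fold, 4.23-fold, 2.46-fold and 2.21-fold, and 0 of the 9 genes rose. That was 4 of 9 lower, beside 18.5% of all genes called lower and 37.6% in either direction, and the same 4 lay below PBS without overlap, beside 22.2% of all genes. The median log2 change of the 9 was -0.25, against -0.03 over all genes.

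Mecom stood at 29.5, 27.6, 21.9, 15.3 and 40.9 CPM in PBS libraries 1 to 5, and at 1.67, 7.55 and 3.76 CPM in LPS 24 h libraries 1 to 3. All 3 LPS libraries lay below the lowest PBS library. The LPS values rested on 18, 110 and 59 reads. The change passed the test (log2 change -2.63, SE 0.472, adjusted p = 0.00104).

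Hlf stood at 160.1, 131, 114, 82.7 and 189 CPM in PBS libraries 1 to 5, and at 19.8, 49.8 and 26.1 CPM in LPS 24 h libraries 1 to 3. The groups did not overlap, and PBS libraries 4 and 5 were the lowest and the highest, as they were for Mecom. Hlf fell (log2 change -2.08, SE 0.484, adjusted p = 0.00425).

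Meis1 stood at 99.5, 100.4, 96.2, 69.4 and 139 CPM in PBS libraries 1 to 5, and at 31.9, 50.7 and 40.0 CPM in the LPS 24 h libraries. Every LPS library was below every PBS library (log2 change -1.30, SE 0.244, adjusted p = 0.00127). Erg, which sustains stem cells and is also made in endothelium, stood at 112, 122, 124, 101 and 172 CPM with PBS and at 36.7, 74.5 and 59.8 CPM at 24 h after LPS. It too fell without overlap (log2 change -1.14, SE 0.235, adjusted p = 0.00212). For these 4 genes LPS 24 h library 1 was the lowest of its group and library 2 the highest. All 4 calls were kept without LPS 24 h library 1, under each of the other 16 leave-outs and under the 8 other alternatives. The size of the falls varied over the leave-outs. The log2 change ran from -3.28 to -2.24 for Mecom and from -2.55 to -1.82 for Hlf. It ran from -1.48 to -1.14 for Meis1 and from -1.38 to -0.90 for Erg.

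Gata2, which serves stem cells as well as mast cells and early erythroid cells, was not called. It stood at 91.7, 67.1, 59.1, 54.6 and 64.8 CPM in PBS libraries 1 to 5 and at 94.6, 83.4 and 126 CPM in LPS 24 h libraries 1 to 3, and the groups overlapped through PBS library 1 (log2 change 0.59, SE 0.434, adjusted p = 0.300). It was called higher when these groups were fitted alone (adjusted p = 0.0285). Tal1, which also drives erythroid genes, stood at 67.6 to 85.0 CPM with PBS and at 70.2, 84.9 and 94.8 CPM with LPS, with overlap. Its log2 change was 0.11, SE 0.219, and it was -0.01 with upper-quartile factors.

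Runx1, whose product pairs with Cbfb, stood at 113, 108, 123, 105 and 122 CPM in PBS libraries 1 to 5 and at 77.9, 109.999 and 101 CPM at 24 h after LPS. LPS library 2 lay within the PBS range and the other LPS libraries below it (log2 change -0.25, SE 0.116, adjusted p = 0.0990). With upper-quartile factors Runx1 was called lower (adjusted p = 0.0299), and without LPS 24 h library 2 as well (adjusted p = 0.0402). Fli1, an ETS factor also of megakaryocytes, ran from 77.1 to 92.5 CPM with PBS and from 74.1 to 80.3 CPM with LPS. Lmo2 ran from 332 to 448 CPM with PBS and from 369 to 426 CPM with LPS. The log2 changes were -0.14, SE 0.132, for Fli1 and 0.01, SE 0.129, for Lmo2, with intervals of 2 SE from -0.40 to 0.13 and from -0.24 to 0.27. With upper-quartile factors the change of Lmo2 was -0.12.

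**Figure D2:**
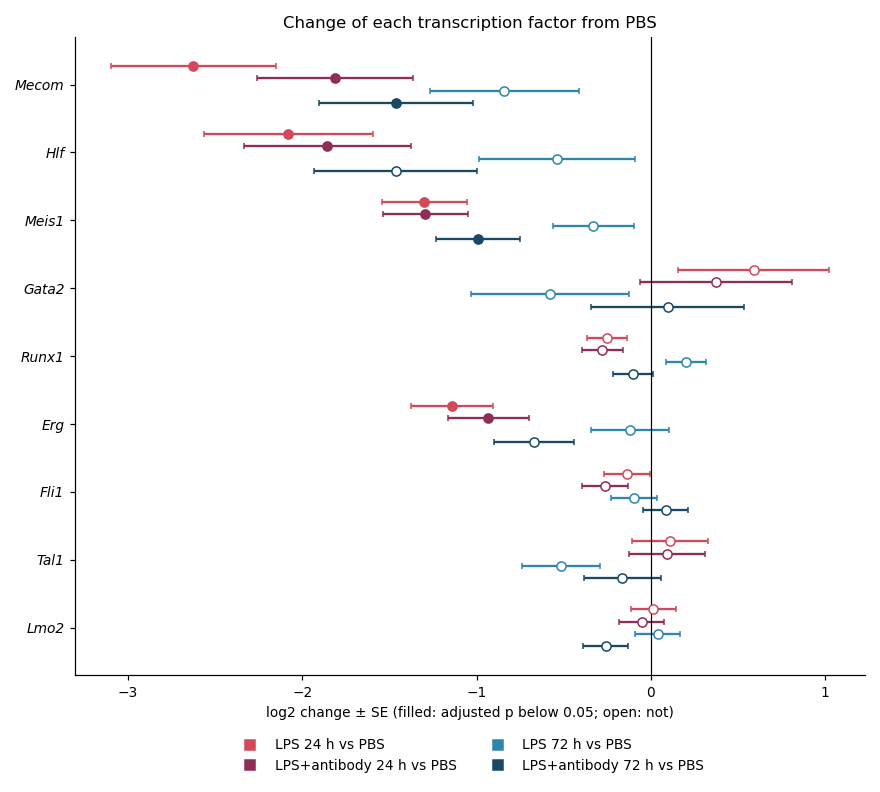
Log2 change from PBS (± SE, from edgeR) of each of the 9 genes in the 4 treated groups; filled points passed an adjusted p of 0.05 and open points did not. Mecom, Hlf, Meis1 and Erg have filled points at 24 h with and without the antibody, the LPS 72 h points are all open, and Mecom and Meis1 have filled points at 72 h with the antibody.

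Other genes of stem cells were read beside these changes. Of 16 such genes 12 fell at 24 h after LPS and 0 rose, beside 18.5% of all genes called lower, with a median log2 change of -1.31 against -0.03 over all genes. The falls were led by Robo4, a guidance receptor of stem cells and endothelium (log2 change -3.48, SE 0.579, adjusted p = 0.000703), Cdkn1c, a cell cycle inhibitor (log2 change -2.77, SE 0.784, adjusted p = 0.0124), and Ndn, a growth suppressor (log2 change -2.55, SE 0.669, adjusted p = 0.00837). Their summed level was 318 to 544 CPM in PBS libraries and 145 to 209 CPM in LPS 24 h libraries. Without both 24 h libraries numbered 1 the count was 9 of 16. With the antibody 11 of 16 fell against PBS at 24 h (6 without both 24 h libraries numbered 1), beside 12.5% of all genes called lower, and 5 at 72 h, beside 6.43%. At 72 h after LPS alone 0 of 16 fell, in a comparison that called 0.0201% of all genes. Between the antibody and LPS alone at 72 h 1 of 16 was called lower. This was beside 967 of 14920 genes called lower and 15.1% called in either direction. The sums were 151 to 235, 175 to 265 and 265 to 428 CPM in the antibody 24 h, antibody 72 h and LPS 72 h libraries. Between 72 h and 24 h after LPS 7 of 16 rose, beside 14.7% of all genes called higher, and 4 did without both 24 h libraries numbered 1. Among the 7 were Procr (1.65) and Esam (1.46), both surface proteins of stem cells. Of the 12 HSPC markers 7 fell at 24 h after LPS and 0 rose, beside 18.5% of all genes called lower. Without both 24 h libraries numbered 1, 5 of 12 fell. Their sums were 3807 to 5031 CPM in PBS and 2358 to 2877 CPM in LPS 24 h libraries. In bulk RNA, fewer cells of a type and less RNA per cell cannot be told apart, for these genes as for the 9 factors.

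Some of the 9 factors are also made in other cells of the marrow. Of 10 tested endothelial markers 6 fell at 24 h after LPS and 0 rose, beside 18.5% of all genes called lower. The 12 listed summed to 275 to 372 CPM with PBS and 148 to 170.4 CPM with LPS. Of the defining markers Cldn5 (0.131 CPM with PBS) and Lyve1 (0.0315 CPM) were at or near 0, and Cdh5 (1.94 CPM, log2 change -2.14, SE 0.881, adjusted p = 0.0669) and Kdr (1.67 CPM, 0.10, SE 1.01, adjusted p = 0.944) were low and not called. Of 14 monocyte and macrophage markers 12 fell, with sums of 554 to 3353 CPM with PBS and 264 to 388 CPM with LPS. Of 12 megakaryocyte markers 3 fell, beside the same 18.5% of all genes, and their sums overlapped (219 to 342 CPM and 171 to 325 CPM). Of 12 T and NK cell markers 4 fell, of 11 B cell markers 3 and of 11 neutrophil markers 0, and 0, 0 and 0 rose. These counts too stand beside 18.5% of all genes called lower. Without both 24 h libraries numbered 1 the falls were 1 for megakaryocyte, 2 for T and NK cell and 1 for B cell markers. The part of these cells in the changes of the factors was not tested.

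The antibody group at 24 h was compared with the same PBS libraries. Mecom, Hlf, Meis1 and Erg fell and 0 of the 9 rose, that is 4 of 9 lower, beside 12.5% of all genes called lower and 24.2% in either direction. Mecom stood at 5.11, 7.34 and 10.7 CPM in antibody libraries 1 to 3, below every PBS library (log2 change -1.81, SE 0.449, adjusted p = 0.0123). Hlf stood at 23.2, 26.6 and 62.3 CPM, also below every PBS library (log2 change -1.86, SE 0.478, adjusted p = 0.0146). Meis1 stood at 39.3, 32.4 and 51.6 CPM (log2 change -1.29, SE 0.244, adjusted p = 0.00471). Library 3 held the highest value of its group for each of these 3 genes.

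Erg stood at 51.5, 58.5 and 88.0 CPM in the antibody libraries at 24 h, all below PBS (log2 change -0.93, SE 0.233, adjusted p = 0.0128). Runx1, at 96.7, 101 and 86.1 CPM, also lay below every PBS library but was not called (log2 change -0.28, SE 0.116, adjusted p = 0.0893), except with upper-quartile factors (adjusted p = 0.0375). That made 5 of 9 genes with all antibody libraries below PBS, beside 16.7% of all genes. Without antibody 24 h library 2 only Meis1 remained called, and Mecom, Hlf and Erg had adjusted p-values of 0.0611, 0.0784 and 0.0690, while the number of all genes called went from 3605 to 877. Without antibody 24 h library 1 Hlf was lost (adjusted p = 0.0510).

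Gata2 spread widely among the antibody libraries at 24 h, at 136, 88.8 and 37.0 CPM in libraries 1 to 3. Tal1 followed the same order, at 107, 81.1 and 58.6 CPM. Neither was called (log2 change 0.37, SE 0.436, and 0.09, SE 0.219), and without antibody 24 h library 1 both values were below 0, at -0.10 and -0.14. Fli1 (61.2 to 78.9 CPM, log2 change -0.26, SE 0.133, adjusted p = 0.158) and Lmo2 (327 to 408 CPM, log2 change -0.05, SE 0.130, adjusted p = 0.794) were not called.

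At 72 h after LPS alone, 0 of the 9 genes were called against PBS by edgeR, beside 0.0201% of all genes. At an unadjusted p below 0.05 there was 1 of 9, Tal1, beside 11.4% of all genes, and DESeq2 called 0 of 9. Limma voom with sample quality weights called 1 of 9, Tal1 (adjusted p = 0.0368), beside 14.5% of all genes by the same tool. Mecom stood at 19.2, 15.04 and 11.1 CPM in LPS 72 h libraries 1 to 3 and overlapped PBS (log2 change -0.84, SE 0.426, adjusted p = 0.465). Hlf stood at 137, 79.8 and 62.8 CPM, with overlap (log2 change -0.54, SE 0.448, adjusted p = 0.656). Meis1 (101, 77.8 and 61.4 CPM) and Erg (132, 112 and 104 CPM) overlapped PBS too, with log2 changes of -0.33, SE 0.233, and -0.12, SE 0.226.

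Tal1 stood at 66.1, 53.6 and 42.6 CPM at 72 h after LPS, all below the PBS minimum of 67.6 CPM. It was 1 of 9 members whose libraries lay below PBS without overlap at this time, beside 7.01% of all genes (log2 change -0.51, SE 0.224, adjusted p = 0.406). Gata2 stood at 67.2, 44.4 and 24.1 CPM (log2 change -0.58, SE 0.451) and Runx1 at 135, 118 and 141 CPM (0.20, SE 0.114). Fli1 stood at 72.8 to 87.7 CPM (-0.10, SE 0.132) and Lmo2 at 334 to 447 CPM (0.04, SE 0.129). For 7 of the 9 genes, Runx1 and Fli1 being the exceptions, library 1 was the highest and library 3 the lowest of the LPS 72 h group.

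At 72 h with the antibody, Mecom and Meis1 fell against PBS, that is 2 of 9 lower, beside 6.43% of all genes called lower and 13.2% in either direction. Mecom stood at 5.55, 15.2 and 8.70 CPM in libraries 1 to 3, with library 2 just under the PBS minimum of 15.3 CPM (log2 change -1.46, SE 0.440, adjusted p = 0.0403). Meis1 stood at 42.0, 64.6 and 45.6 CPM, below every PBS library (log2 change -0.99, SE 0.240, adjusted p = 0.0187). Hlf, at 20.9, 84.5 and 41.9 CPM, overlapped PBS through library 2 and missed the threshold (log2 change -1.46, SE 0.468, adjusted p = 0.0501). Erg, at 80.1, 90.4 and 66.9 CPM, lay below every PBS library and missed it too (log2 change -0.67, SE 0.231, adjusted p = 0.0621). That made 3 of 9 genes with all libraries below PBS, beside 13.6% of all genes.

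These 2 calls rested on single libraries, and with a replicate block 0 of 9 were called. Without antibody 72 h library 1, or without antibody 72 h library 3, 0 of 9 were called (Mecom adjusted p = 0.141 and 0.121, Meis1 adjusted p = 0.0807 and 0.0744). Mecom was also lost without PBS library 1, 2, 3 or 5, LPS 24 h library 3 or LPS 72 h library 2. Hlf and Erg were both called, which made 4 of 9, by DESeq2, when both groups were fitted alone, and without LPS 24 h library 1 or antibody 24 h library 3.

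The other 5 genes were not called at 72 h with the antibody. Gata2 stood at 121, 69.9 and 25.2 CPM and Tal1 at 95.4, 64.4 and 47.1 CPM in libraries 1 to 3, the same order of libraries as in the antibody group at 24 h. Runx1 stood at 115, 102 and 103 CPM (log2 change -0.10, SE 0.115). Fli1 stood at 68.8, 107 and 96.1 CPM (0.08, SE 0.131, and -0.01 with upper-quartile factors) and Lmo2 at 306, 324 and 352 CPM (-0.26, SE 0.131, adjusted p = 0.184).

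LPS at 72 h was set against LPS at 24 h to see which factors differed between the times. Mecom, Hlf, Meis1, Runx1 and Erg rose, that is 5 of 9 higher, beside 14.7% of all genes called higher and 31.1% in either direction. For each of these 5 the libraries at 72 h lay above those at 24 h, beside 22.4% of all genes. Mecom was 3.44-fold higher at 72 h (log2 change 1.78, SE 0.489, adjusted p = 0.0124), Hlf 2.91-fold (log2 change 1.54, SE 0.508, adjusted p = 0.0308) and Erg 2.03-fold (log2 change 1.02, SE 0.255, adjusted p = 0.00728). Meis1 was 1.96-fold higher (log2 change 0.97, SE 0.262, adjusted p = 0.0114) and Runx1 1.37-fold (log2 change 0.45, SE 0.128, adjusted p = 0.0153). This comparison uses the LPS 24 h libraries that also entered the comparison with PBS, so the 2 are not independent.

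Gata2 and Tal1 lay the other way. Gata2 stood at 83.4 to 126 CPM at 24 h and 24.1 to 67.2 CPM at 72 h, and Tal1 at 70.2 to 94.8 CPM and 42.6 to 66.1 CPM, without overlap for either, beside 23% of all genes that lay lower without overlap. Neither passed the threshold (log2 change -1.17, SE 0.50004, adjusted p = 0.0871, and -0.62, SE 0.247, adjusted p = 0.0658), while both were called lower by DESeq2 (adjusted p = 0.0423 and 0.0437) and by limma voom. DESeq2 and limma voom called 34.5% and 46.6% of all genes here in either direction. Fli1 (0.04, SE 0.147) and Lmo2 (0.02, SE 0.145) had intervals of 2 SE from -0.25 to 0.34 and from -0.27 to 0.31.

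Single libraries weighed on the number of rises. Without LPS 24 h library 1, Hlf and Runx1 were lost (adjusted p = 0.110 and 0.05004), and without LPS 24 h library 3, Mecom and Hlf (adjusted p = 0.0501 and 0.101). Without LPS 72 h library 1, Mecom and Erg remained, and without LPS 72 h library 3 Runx1 was lost (adjusted p = 0.0746). Without both 24 h libraries numbered 1, Mecom and Erg rose and Tal1 fell.

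**Figure D3:**
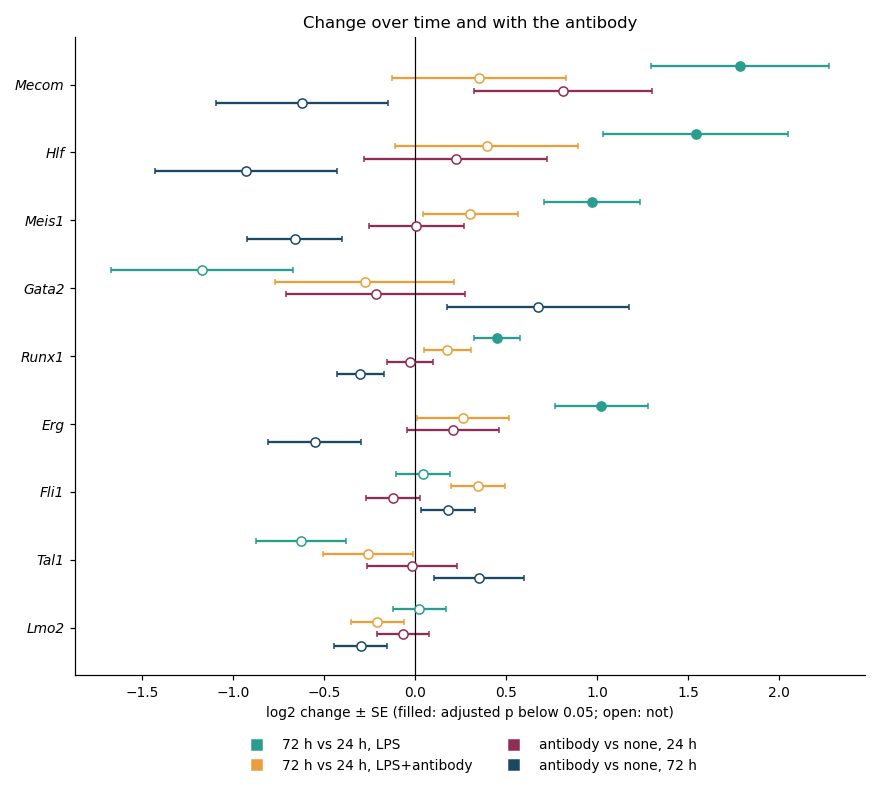
Log2 change (± SE, from edgeR) of each of the 9 genes between the times and between the groups with and without the antibody; filled points passed an adjusted p of 0.05. Mecom, Hlf, Meis1, Runx1 and Erg have filled points for 72 h against 24 h after LPS alone, and every other point is open.

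With the antibody present, 0 of the 9 genes were called between 72 h and 24 h by edgeR, beside 0% of all genes. At an unadjusted p below 0.05 there was 1 of 9, Fli1, beside 4.26% of all genes, and DESeq2 called 0 of 9. The log2 changes were 0.35, SE 0.476, for Mecom, 0.39, SE 0.5001, for Hlf, 0.30, SE 0.261, for Meis1 and 0.26, SE 0.253, for Erg, and the libraries of these genes at the 2 times overlapped. Those of Runx1 did not, at 86.1 to 101 CPM and 102 to 115 CPM, beside 4.87% of all genes, but Runx1 was not called (log2 change 0.18, SE 0.128, adjusted p = 0.918).

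The antibody was also compared directly with LPS alone at each time. At 24 h 0 of 9 genes were called by edgeR, beside 0% of all genes, 0 of 9 had an unadjusted p below 0.05, beside 1.83% of all genes, and DESeq2 called 0 of 9. Mecom (log2 change 0.81, SE 0.487), Hlf (0.22, SE 0.501) and Meis1 (0.01, SE 0.261) had intervals of 2 SE from -0.16 to 1.79, from -0.78 to 1.23 and from -0.51 to 0.53. A doubling of Mecom or Hlf lay within its interval.

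At 72 h 0 of 9 were called by edgeR between the antibody and LPS alone, beside 15.1% of all genes in either direction, and DESeq2 called 0 of 9. At an unadjusted p below 0.05 there were 3 of 9, beside 32.5% of all genes, namely Meis1 (log2 change -0.66, SE 0.261, adjusted p = 0.0940), Runx1 (log2 change -0.30, SE 0.128, adjusted p = 0.118) and Erg (log2 change -0.55, SE 0.253, adjusted p = 0.143). Erg stood at 66.9 to 90.4 CPM with the antibody and 104 to 132 CPM without it, and Runx1 at 102 to 115 CPM and 118 to 141 CPM. Those were the 2 of 9 genes whose libraries lay lower without overlap, beside 16.1% of all genes. Mecom (-0.62, SE 0.471), Hlf (-0.93, SE 0.4998), Gata2 (0.67, SE 0.497) and Tal1 (0.35, SE 0.247) overlapped. Runx1 was called without LPS 24 h library 1 (adjusted p = 0.0483), and limma voom called 3 of 9, Fli1 higher and Runx1 and Lmo2 lower, beside 29.7% of all genes by the same tool.

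The difference between the antibody effects at 72 h and at 24 h was tested as an interaction, and 0 of 9 genes passed by edgeR, beside 6.35% of all genes, with 0 of 9 by DESeq2. Mecom had -1.43 on the log2 scale (SE 0.678, adjusted p = 0.208) and Hlf had -1.15, SE 0.707, adjusted p = 0.343. Erg had -0.76 (SE 0.358, adjusted p = 0.206), 1 of 9 with an unadjusted p below 0.05, beside 24.2% of all genes. The rise between 24 h and 72 h after LPS alone was not shown to differ with the antibody for any of the 9.

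Ordered by mean level, Mecom, Hlf, Meis1 and Erg ran alike through the 5 groups, from PBS through LPS 72 h, antibody 72 h and antibody 24 h to LPS 24 h. Neighbours in that order overlapped in their libraries, except for Erg between LPS 72 h and antibody 72 h. As a share of the PBS mean in those 4 treated groups, Mecom was at 55.9%, 36.3%, 28.5% and 16.01%, and Hlf at 68.9%, 36.3%, 27.6% and 23.6%. Meis1 was at 79.5%, 50.3%, 40.8% and 40.5%, and Erg at 92.0%, 62.8%, 52.4% and 45.2%. Gata2 and Tal1 had another order, with LPS 24 h highest and LPS 72 h lowest, and neighbouring groups overlapped.

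The pattern of each member over the 17 libraries was compared with genes at or above the median abundance of tested genes, as the root mean square difference of log2 CPM after centring, in which a smaller value means a closer pattern. The measure is not scaled to how much a gene varies, so genes that vary little score low: over the 17 libraries the SD was 1.16 for Mecom, 1.08 for Hlf, 0.64 for Meis1, 0.57 for Erg and 0.21 for Runx1. Among the 9, the pair with the smallest difference was Meis1 and Erg (0.21), and Mecom and Hlf were at 0.36. Mecom was closest to Gcnt2 (0.34), Hlf (0.36) and Zfp608 (0.38), and Hlf to Gcnt2 (0.26), Itih5 (0.34) and Pglyrp2 (0.35). Meis1 was closest to Slc25a23 (0.15), Gm50230 (0.18) and Cxxc5 (0.18), and Erg to Mef2c, a MADS-box factor (0.15), Rnf144a (0.16) and Rbpms (0.16). Gata2 was closest to Zfpm1, the GATA cofactor FOG1 (0.27), Clstn1 (0.33) and H2-Q7 (0.33), and Tal1 to Asph (0.16), Stat5a (0.18) and Klhl22 (0.18). Runx1 was closest to Zfp369 (0.09), Fli1 to Sptan1 (0.11) and Lmo2 to Fam149b (0.11). The libraries share groups and scaling, so these values carry no test.

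Gata2 and Tal1 were read beside markers of mast cells, basophils and erythroid cells, which also make them. The 11 mast cell and basophil markers summed to 925, 495 and 103 CPM in antibody libraries 1 to 3 at 24 h and to 513, 257 and 84.2 CPM at 72 h, the order in which Gata2 and Tal1 also ran. They summed to 579.7, 181 and 426 CPM in the LPS 24 h libraries, 116 to 118 CPM in the LPS 72 h libraries and 100.0 to 389 CPM with PBS. The 14 erythroid markers summed to 3232, 1394 and 280.2 CPM in the antibody libraries at 24 h and to 2012, 516 and 291 CPM at 72 h, again in that order. In LPS 24 h libraries 1 to 3 they summed to 1480, 813 and 1844 CPM. In LPS 72 h libraries 1 to 3 they summed to 469, 259 and 173 CPM. Gata2 ran in these orders at both times, and Tal1 at 72 h only. With PBS the erythroid markers summed to 617 to 995 CPM, lowest in library 2, whereas Gata2 was lowest in library 4. The mast cell and basophil sums did not match in order in the groups with LPS alone. Among the LPS 24 h libraries their sum was highest in library 1 and Gata2 in library 3. Among the LPS 72 h libraries their sums were nearly equal while Gata2 ran from 24.1 to 67.2 CPM. Tpsb2, a mast cell tryptase, was at or near 0 (group means up to 0.143 CPM), whereas Prss34, a protease of basophils, had group means from 15.1 to 157 CPM.

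Between LPS 72 h and LPS 24 h, 5 of 9 tested mast cell and basophil markers fell and 0 rose, beside 16.4% of all genes called lower, led by Fcer1a (log2 change -3.91, SE 1.21, adjusted p = 0.0233) and Ms4a2 (log2 change -3.67, SE 0.933, adjusted p = 0.00807), both chains of the IgE receptor. With upper-quartile factors 2 fell, and 1 fell without both 24 h libraries numbered 1. Of 14 erythroid markers 4 fell and 0 rose, beside the same 16.4% of all genes. Without both 24 h libraries numbered 1, 2 of 14 fell, in a fit that called 1885 genes lower. The part of these cells in the levels of Gata2 and Tal1 was not tested.

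**Figure D4:**
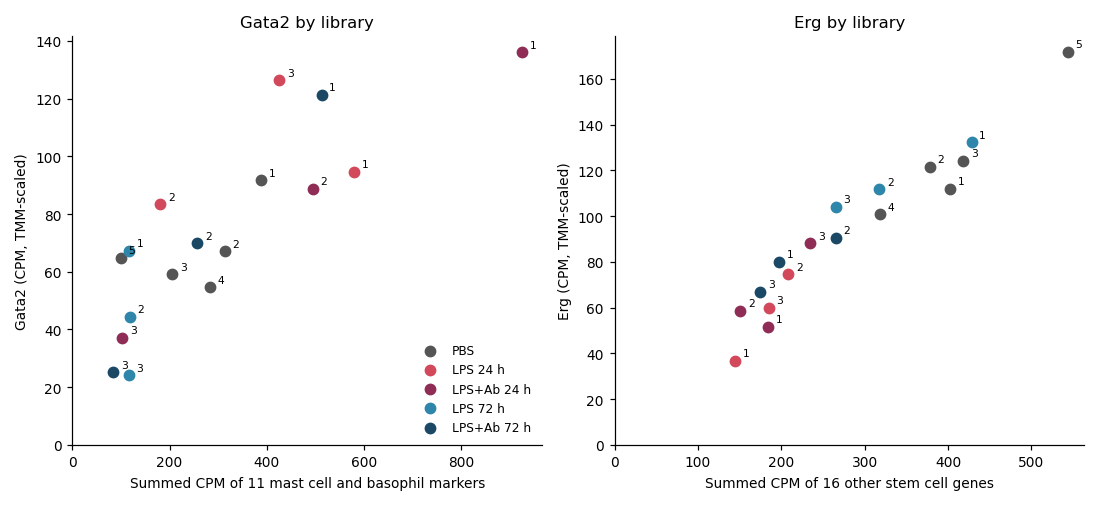
Left, Gata2 against the summed level of 11 mast cell and basophil markers; right, Erg against the summed level of 16 other stem cell genes, as TMM-scaled CPM on linear axes, 1 point per library with its number and the colour of its group. Gata2 is highest (136 CPM) in the library with the highest marker sum (925 CPM), but its lowest value (24.1 CPM) is not in the library with the lowest sum (84.2 CPM), and Erg is highest (172 CPM) and lowest (36.7 CPM) in the libraries with the highest and lowest stem cell sums (544 and 145 CPM).

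Proteins with which the 9 factors work were taken as a list of 20 partners. At 24 h after LPS 3 rose and 3 fell, beside 37.6% of all genes called, with a median log2 change of -0.11. Tcf4, an E protein that pairs with Tal1, fell (log2 change -1.11, SE 0.165, adjusted p = 0.000487), as did Hoxa9, a homeobox partner of Meis1 (log2 change -0.79, SE 0.203, adjusted p = 0.00761), and Cbfa2t3, a corepressor of the Tal1 complex (log2 change -0.51, SE 0.183, adjusted p = 0.0381). Lmo4, a relative of Lmo2, rose (log2 change 0.64, SE 0.203, adjusted p = 0.0226), as did the corepressors Ctbp2 (0.39) and Kdm1a (0.27), but with upper-quartile factors 0 of 20 rose and 5 fell, and 1 rose without both 24 h libraries numbered 1. With the antibody 1 rose and 4 fell at 24 h, beside 24.2% of all genes called, among the latter Tcf4 (-0.89) and Cbfa2t3 (-0.61).

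At 72 h after LPS 0 of the partners rose and 0 fell against PBS, in a comparison that called 0.0201% of all genes. With the antibody 1 of 20 fell, beside 6.43% of all genes called lower, namely Cbfa2t3 (log2 change -0.74, SE 0.185, adjusted p = 0.0210). Between 72 h and 24 h after LPS, Tcf4 (log2 change 1.26, SE 0.1801, adjusted p = 0.000265) and Hoxa9 (log2 change 0.79, SE 0.223, adjusted p = 0.0145) rose, 2 of 20, beside 14.7% of all genes called higher. At 72 h 4 of 20 were lower with the antibody than with LPS alone. This was beside 967 of 14920 genes called lower and 15.1% called in either direction. The 4 were led by Lyl1, a close relative of Tal1 (log2 change -0.74, SE 0.234, adjusted p = 0.0449), Cbfa2t3 (-0.68) and Tcf4 (-0.58).

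Relatives of the 9 factors within their protein families were a list of 18, of which 15 passed the filter. At 24 h after LPS 9 of 15 fell (7 without both 24 h libraries numbered 1) and 0 rose, beside 18.5% of all genes called lower. The median log2 change was -0.51. Meis3 (log2 change -2.62, SE 0.598, adjusted p = 0.00384), Gata3, the GATA factor of T cells (log2 change -2.01, SE 0.420, adjusted p = 0.00229), and Ets1 (log2 change -1.73, SE 0.278, adjusted p = 0.000613) led. With the antibody 8 fell at 24 h and 6 at 72 h, beside 12.5% and 6.43% of all genes called lower. These falls were led at both times by Meis3 (-2.52 and -2.17) and Gata3 (-1.80 and -1.62). At 72 h after LPS alone 0 fell, in a comparison that called 0.0201% of all genes. Between 72 h and 24 h 7 rose, beside 14.7% of all genes called higher, led by Gata3 (1.66), Dbp, a clock-controlled relative of Hlf (1.51), and Runx2 (1.44). At 72 h 3 were lower with the antibody than with LPS alone, led by Dbp (log2 change -1.70, SE 0.299, adjusted p = 0.00293). This was beside 967 of 14920 genes called lower and 15.1% called in either direction. Dbp also passed the test of the difference between the antibody effects (-1.69, SE 0.419, adjusted p = 0.0297), beside 6.35% of all genes, though not without both 24 h libraries numbered 1.

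Of 20 tested other transcription factors of stem and progenitor cells, 9 fell and 0 rose at 24 h after LPS. That was beside 18.5% of all genes called lower, and 7 fell without both 24 h libraries numbered 1. The median log2 change of the 20 was -0.51. Mycn, a relative of Myc (log2 change -1.79, SE 0.423, adjusted p = 0.00460), Hoxb5 (log2 change -1.66, SE 0.598, adjusted p = 0.0392) and Zfp521 (log2 change -1.32, SE 0.258, adjusted p = 0.00161) led. With the antibody 7 fell at 24 h and 4 at 72 h, beside 12.5% and 6.43% of all genes called lower. Both times these were led by Mycn (-1.77 and -1.41) and Prdm16, a relative of Mecom (-1.07 and -1.04). Between 72 h and 24 h after LPS 8 rose, beside 14.7% of all genes called higher, led by Hoxb5 (2.15), Zfp521 (1.03) and Foxo1 (0.98). Bmi1, a Polycomb protein of self-renewal, fell (-0.49), beside 16.4% of all genes called lower, but was not called with upper-quartile factors. Without both 24 h libraries numbered 1, 2 rose.

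A list of 24 genes known as targets of these factors was read beside them. At 24 h after LPS 8 fell and 1 rose, together a share near the 37.6% of all genes called in either direction. The 8 falls (6 without both 24 h libraries numbered 1) stand beside 18.5% of all genes called lower. The median log2 change was -0.15. Flt3, a cytokine receptor of early progenitors (log2 change -2.45, SE 0.447, adjusted p = 0.00113), and Procr, a surface marker of stem cells (log2 change -1.68, SE 0.336, adjusted p = 0.00182), were among those that fell, and Cebpa, a factor of myeloid commitment, rose (log2 change 0.89, SE 0.244, adjusted p = 0.0109), a call lost without both 24 h libraries numbered 1. With the antibody 8 fell and 0 rose at 24 h, beside 12.5% of all genes called lower, led by Pf4, a platelet chemokine (-2.78).

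At 72 h after LPS alone 0 of the targets fell and 0 rose against PBS, in a comparison that called 0.0201% of all genes. With the antibody Hif1a, an oxygen-sensing factor, rose (log2 change 0.73, SE 0.161, adjusted p = 0.0130) and Angpt1, a ligand of the Tek receptor, fell (log2 change -1.17, SE 0.342, adjusted p = 0.0368). This was beside 13.2% of all genes called in either direction. With upper-quartile factors 3 targets fell, and 4 fell without both 24 h libraries numbered 1. Set against LPS alone at 72 h, Hif1a was higher with the antibody (log2 change 0.98, SE 0.185, adjusted p = 0.00409), and Csf1r, the receptor of macrophage colony-stimulating factor (-1.11), and Cd34 (-0.78) were lower. That comparison called 15.1% of all genes in either direction. Between 72 h and 24 h after LPS 4 rose and 3 fell, beside 31.1% of all genes called in either direction. They were led by Flt3 (2.60) and by Epor, the erythropoietin receptor (-3.43), and 1 fell both with upper-quartile factors and without both 24 h libraries numbered 1.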

How the data were processed

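Polyadenylated RNA of sorted HSPC was measured in 17 libraries in 5 groups, taken from the sample titles. The authors deposited 1 table of raw counts per gene symbol, which were made with HISAT2 2.2.0, Subread and featureCounts 2.1.1 on GRCm38, with R 4.3.2 and DESeq2 also named, per the submitters' processing notes. The annotation and the strand setting are not given in the sources used here. Multi-mapping and overlapping reads can therefore be split or dropped in a way that cannot be checked.

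From the counts, edgeR 4.0.16 (R 4.3.3) was fitted to all 17 libraries with 1 mean per group: filterByExpr (minimum count 10, minimum total 15), TMM factors, glmQLFit and glmQLFTest, Benjamini-Hochberg adjustment over 14920 genes for each of 9 comparisons, threshold 0.05. The tested genes held 99.9% of all counts, and 13321 symbols were at 0 in every library. An SE is the absolute log2 change divided by the square root of F. The fit was tested on simulated data. Alternatives were other scaling factors, no filter, a replicate block, only the groups compared, DESeq2 1.42.0, limma 3.58.1 voom with sample quality weights, and leaving out libraries. Figures were drawn with matplotlib 3.10.9.

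The 9 genes and the gene lists were chosen with earlier results of these data known. Genes named from a list were, per direction and comparison, at most the 3 called genes with the largest change (some genes under this rule are not reported here), and the genes of closest pattern were the 3 of smallest difference. Replicate numbers were checked for pairing: for LPS 24 h against PBS the deviations of all 3 same-numbered pairs correlated above 0.1 (0.191, 0.188 and 0.158). By that rule these count as paired, but every p-value and share printed for this comparison in the main text is from the unpaired fit. The replicate block, fitted as an alternative, kept all 4 calls. It called 4163 of all genes (27.9%), against 5616 (37.6%) in the unpaired fit.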

Additional observations from a re-analysis of the deposited data

How the results depend on the processing

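Leaving out each library in turn gave 4 to 5 of the 9 genes called for LPS 24 h against PBS, 1 to 4 for the antibody at 24 h, 0 to 0 for LPS 72 h, 0 to 4 for the antibody at 72 h, 2 to 7 for LPS 72 h against 24 h, 0 to 1 for the antibody effect at 72 h, and 0 to 0 for the antibody effect at 24 h, for 72 h against 24 h with the antibody (0 to 0) and for the difference of the effects (0 to 0). For LPS 72 h against PBS limma voom called 1, beside 14.5% of all genes by the same tool. For the antibody at 72 h against PBS the replicate block called 0 (Mecom adjusted p = 0.0657, Meis1 0.0539), and the fit of only the groups compared, DESeq2 and the fit without both 24 h libraries numbered 1 called 4, 4 and 4. For the antibody effect at 72 h limma voom called 3, and for LPS 72 h against 24 h the fit without both 24 h libraries numbered 1 called 3. Only LPS 24 h against PBS had all 3 same-numbered pairs above 0.1. Over all comparisons 11 of 24 pairs correlated above 0.1 (-0.36 to 0.72), and 8 of 15 libraries correlated best with their own number. The strongest pairs lay elsewhere. For 72 h against 24 h with the antibody they were 0.723, -0.022 and 0.697 for numbers 1 to 3. For the antibody effect at 72 h they were 0.267, 0.011 and 0.319. Pairing of single numbers in these comparisons is therefore not excluded.

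Over all genes, the number called for LPS 72 h against PBS was 3, but 178 with DESeq2, 2170 with limma voom, 99 with only the groups compared and 0 with the replicate block. For LPS 24 h it went from 5616 to 3678 without both 24 h libraries numbered 1, and from 3605 to 1721 with the replicate block for the antibody at 24 h. It was 1975, 374 (replicate block), 3053 (limma voom) and 3076 (without both) for the antibody at 72 h, and 2256, 4433 (limma voom) and 1123 (only the groups compared) for the antibody effect at 72 h. For the difference of the effects it was 947, 1709 with DESeq2, 1585 with limma voom, 617 with no filter, 286 with only the groups compared, 333 with the replicate block and 127 without both. The causes were not tested.

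Log2 changes that changed sign were none of them called. Against PBS at 24 h after LPS they were Tal1 -0.015 and Lmo2 -0.12 (upper-quartile factors), -0.027 (without both 24 h libraries numbered 1) and -0.0043 (limma voom). For the antibody at 24 h they were Tal1 -0.016 (upper-quartile) and, without both, Gata2 -0.072, Tal1 -0.12 and Lmo2 0.069. For the antibody at 72 h they were Gata2 -0.00032 and Fli1 -0.0086 (upper-quartile), and Gata2 -0.19 (replicate block) and -0.089 (limma voom). For the antibody effect at 24 h they were Tal1 0.0062 (only the groups compared), Meis1 -0.096 and Lmo2 0.096 (without both) and Meis1 -0.13 (limma voom). Fli1 was -0.013 for LPS 72 h against 24 h (limma voom), and Gata2 0.19 for the antibody at 72 h against 24 h (without both).

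Leaving out 1 library also changed signs. The ranges were, for the antibody effect at 24 h, Erg -0.043 to 0.45, Gata2 -0.69 to 0.15, Hlf -0.35 to 0.70, Lmo2 -0.12 to 0.027, Meis1 -0.18 to 0.19, Runx1 -0.14 to 0.079 and Tal1 -0.25 to 0.19. For the antibody at 24 h against PBS they were Gata2 -0.097 to 0.77, Lmo2 -0.11 to 0.045 and Tal1 -0.14 to 0.32, and at 72 h Fli1 -0.026 to 0.28, Gata2 -0.48 to 0.50 and Tal1 -0.44 to 0.049. Between the times with the antibody they were Gata2 -0.88 to 0.19, Hlf -0.24 to 0.96 and Mecom -0.10 to 0.64, and with LPS alone Fli1 -0.052 to 0.10 and Lmo2 -0.061 to 0.12. For Lmo2 they were -0.041 to 0.071 for LPS 24 h and -0.044 to 0.14 for LPS 72 h against PBS.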
